A study of Rattus norvegicus with 3 samples.

Results

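Heat shock proteins and their partners are the chaperones that fold new proteins and refold or hold damaged ones. HSP70 proteins bind exposed hydrophobic stretches in a cycle of ATP hydrolysis that J domain proteins start and that exchange factors of the HSP110 and BAG families end, and they pass some clients on to HSP90. Small heat shock proteins hold unfolding proteins without ATP, while the ring-shaped chaperonins CCT, in the cytosol, and HSPD1 with HSPE1, in mitochondria, enclose a client while it folds. Many of these genes are switched on by heat shock factors, which bind repeats of the letters GAA and TTC in promoters, and in neurons J domain proteins also serve vesicle and clathrin traffic.

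The genes described here are the entries whose symbol begins with HSPA to HSPH and a digit, HSP90, DNAJ, CCT and a digit, or BAG and a digit, with the proteoglycan HSPG2 left out. This rule gave 80 of the 12771 entries, and it used the symbol and no measured value. The 80 fell into 14 HSP70 and HSP110 genes, 3 HSP90 genes, 7 small heat shock proteins, 2 mitochondrial chaperonin genes, 41 J domain (DNAJ) genes, 8 CCT entries and 5 BAG entries. Of these symbols 78 matched a rat gene symbol in RefSeq and 2 a synonym, and CCT6A-PS2 is annotated as a pseudogene. HSPB11 (also IFT25, of intraflagellar transport) and the distant HSP70 relatives HSPA12A and HSPA12B meet the rule but have other main roles. HSPA14, which is ribosome-associated, was grouped with them wherever members with other roles are left out.

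The samples came from female Sprague Dawley rats of 3 months. All had the T9 lamina removed, and the cord was then left alone (No-SCI) or contused (SCI), and 24 h later a segment of about 2 mm was taken at T8, rostral to the injury. A cold-active protease dissociated the segment at 6°C, cells were pelleted, and RNA was read from the supernatant, which holds processes, fragments and released RNA rather than sorted cells. By its labels No-SCI has 2 libraries and SCI has 1, while the study states 2 animals per condition.

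The authors' deposited values are FPKM, fragments scaled by transcript length and by library size, with 1 pooled value per group and none per animal. From these values neither an SD nor a replicate test can be computed, the authors' own test columns were not used, and no read counts stand behind single values, so that every comparison below is a description of these group values, with "higher" and "lower" meaning SCI against No-SCI. All log2 ratios are SCI over No-SCI without a pseudocount. The median log2 ratio of all entries was −0.12, so centring it at 0 would move every ratio up by 0.12, and equal upper quartiles would move it by 0.10. No value in the table is below 1, and no chaperone entry is listed at exactly 1. If a constant of 1 was added to every value, ratios of low entries are understated: with 1 subtracted, HSPA1L had a log2 ratio of −1.73 in place of −1.04 and DNAJB13 −1.76 in place of −1.17, and HSPA1B passed 2-fold (−1.01). That gave 12 members at least 2-fold lower, beside 16.2% of the 12716 entries above 1 in both groups. As a mark of the tissue, the oligodendrocyte genes MOBP and BCAS1 were the 2 most abundant entries of the whole table in No-SCI, while the astrocyte markers GFAP, AQP4, SLC1A3, S100B and ALDOC have no entry in the table used. In such bulk RNA, fewer cells of a type (or fewer of their processes) and less RNA per cell cannot be told apart.

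The letters that heat shock factors bind were looked for in the promoters of the 64 members that have one in RefSeq (rat build GRCr8, 250 bases before to 50 after the annotated start). These windows serve as sequence only, since the values were made on another build, rn6. The search took GAANNTTC and TTCNNGAA, each of which reads the same on the other strand, and overlapping matches were all counted. A match stood in 19 of the 64 windows (29.7%) and in 5305 of all 33469 promoters (15.9%). Each of the 64 members has 1 window here, while all promoters were not reduced to 1 per gene. A run of 3 units without a gap, GAANNTTCNNGAA or TTCNNGAANNTTC, stood in 6 of the 64 windows (9.38%) and in 267 of all promoters (0.798%); this search was added after the matches to the pair were seen. In 12 windows of genes listed as targets of heat shock factors, 9 held the pair (75%) and 5 the run of 3. The other 52 held the pair in 10 (19.2%) and the run of 3 in 1. The list was made of targets of the factors that bind these letters, so its higher share could be foreseen and is no test.

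The 150 bases before the start are printed for 6 members that show the range of the results, with the matching letters in capitals. HSPB1 and HSPE1 carried matches and had higher values in SCI, HSPA8, HSPH1 and DNAJB1 carried matches and had lower values, and BAG1, with the largest ratio of all members, had no match in its window. They lie on GRCr8 at chr12:26432302-26432451 (HSPB1, minus strand), chr9:64084177-64084326 (HSPE1, plus), chr8:50080364-50080513 (HSPA8, plus), chr12:10427218-10427367 (HSPH1, plus), chr19:41431142-41431291 (DNAJB1, minus) and chr5:60877060-60877209 (BAG1, minus).
HSPB1: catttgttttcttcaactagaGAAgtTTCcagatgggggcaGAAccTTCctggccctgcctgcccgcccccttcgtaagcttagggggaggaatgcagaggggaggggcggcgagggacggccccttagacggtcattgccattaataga
HSPE1: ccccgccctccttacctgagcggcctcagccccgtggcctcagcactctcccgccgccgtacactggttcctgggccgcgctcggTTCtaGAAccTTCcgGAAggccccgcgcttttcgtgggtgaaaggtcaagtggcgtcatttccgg
HSPA8: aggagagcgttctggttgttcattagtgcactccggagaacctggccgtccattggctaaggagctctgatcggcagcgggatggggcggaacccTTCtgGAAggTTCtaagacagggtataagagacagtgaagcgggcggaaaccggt
HSPH1: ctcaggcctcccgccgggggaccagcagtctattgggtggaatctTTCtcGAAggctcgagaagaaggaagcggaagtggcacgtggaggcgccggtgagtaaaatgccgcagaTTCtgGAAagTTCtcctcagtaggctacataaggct
DNAJB1: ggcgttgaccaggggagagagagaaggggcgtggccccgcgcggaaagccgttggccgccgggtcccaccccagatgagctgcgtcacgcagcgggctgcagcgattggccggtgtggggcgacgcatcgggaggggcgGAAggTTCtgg
BAG1: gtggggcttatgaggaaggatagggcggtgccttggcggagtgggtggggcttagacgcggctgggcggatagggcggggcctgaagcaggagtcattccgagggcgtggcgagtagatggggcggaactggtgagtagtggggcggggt

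Counted in bases from the start, the matches of HSPB1 began at −129 and −109 and the nearest upstream match of DNAJB1 at −11. HSPE1 held 3 overlapping matches in 1 run, which began at −65. Its window shares 211 bases with that of HSPD1 on the other strand, so that both genes are read away from the same matches. That run is therefore counted for both genes in every count of windows given here. A match is a description of letters and not a site of binding, and the absence of one says only that these letters are not in that window. HSPA1A has a window without a match, and HSPA1B, HSP90AA1 and HSPB2 were among the 16 members whose promoter was not analysed here.

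Among all 80 members 44 were lower in SCI (55%) and 36 higher, beside 56.3% of all entries lower. At least 2-fold, 5 members were higher and 11 lower, beside 7.96% and 12.1% of all entries. The members as a whole thus stood close to the table as a whole, and these totals are no result about chaperones. With the median of all entries centred, 6 were at least 2-fold higher and 7 lower, beside 9.55% and 9.59% of all entries. The median log2 ratio of the members was −0.07, and its sign turned under that centring (0.05) and under upper quartile scaling (0.03). The 5 at least 2-fold higher were BAG1, HSPB2, DNAJC25, HSPA12B and DNAJA4. The 11 at least 2-fold lower were DNAJC27, DNAJC6, HSPA4L, HSPA1A, DNAJC14, DNAJB13, HSPA9, DNAJC13, DNAJC18, HSPA1L and DNAJB2. The median No-SCI level was 6.03 FPKM for the 5 that were higher and 31.8 FPKM for the 11 that were lower.

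The members were abundant, with a median level of 43.3 FPKM in No-SCI and 41.6 FPKM in SCI, against 17.2 and 15.6 FPKM for all entries. Their levels ran from 2.10 FPKM to the 1914 FPKM of HSPB1 in No-SCI, and 20 members in No-SCI and 18 in SCI reached 100 FPKM. Summed over all 80, the level was 8748 FPKM in No-SCI and 9316 FPKM in SCI. Without HSPB1 the sums were 6834 and 6010 FPKM, so the higher total rested on that gene. Values of 27 of the 80 members carry more than 6 significant digits, beside 58.6% of all entries. Such values may be sums over several entries of a symbol, which limits comparison of levels between genes. In GRCr8 19 members overlap another coding gene, among them HSPA1A and HSPA1L, HSPB2, HSPB6, BAG6, CCT8, DNAJC14 and DNAJC27, and whether the counting kept such reads apart is not given in the sources used here.

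The families differed in direction. The median log2 ratio was −0.69 for HSP70 and HSP110, −0.47 for DNAJB and −0.21 for HSP90, beside −0.12 for all entries. These 3 medians kept their sign under every setting tried, with HSP90 at −0.09 under centring. The median was 0.19 for the small heat shock proteins, 0.15 for CCT, 0.05 for DNAJC and 0.02 for DNAJA, and these medians kept their sign as well. The medians of the mitochondrial chaperonin (−0.06) and BAG (−0.08) changed sign under centring. No test of a difference between families was run.

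**Figure D1:**
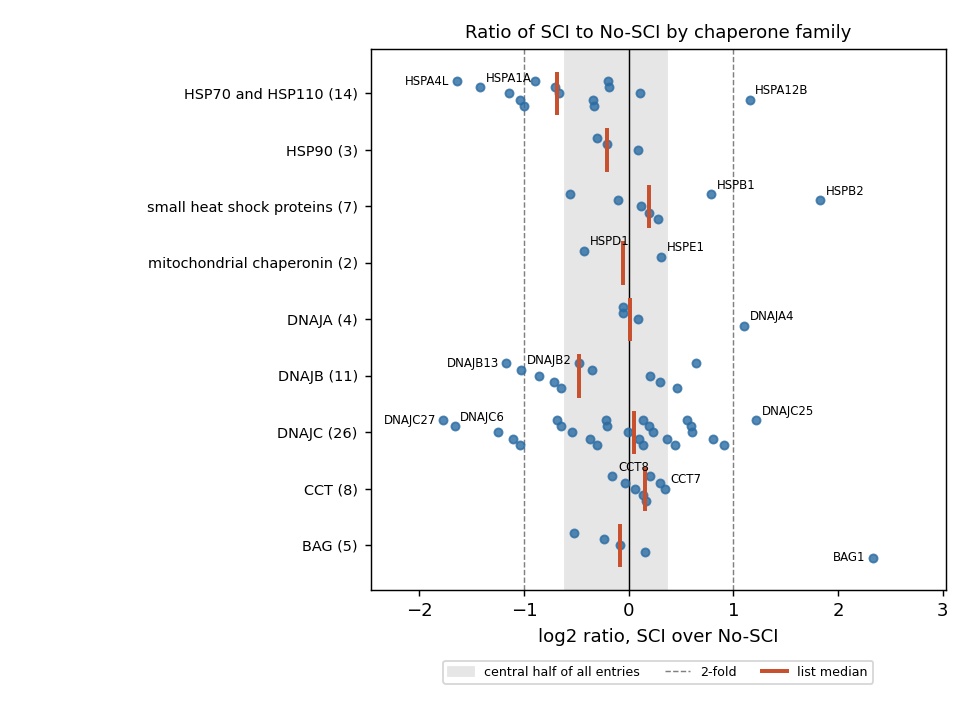
The log2 ratio of SCI over No-SCI (horizontal axis) is shown for each member, 1 point per entry, by family with the number of entries in brackets; red bars are family medians, dashed lines mark 2-fold and the grey band holds the central part of all entries, from −0.61 to 0.37 (the quartiles). HSP70 and HSP110 genes lie mostly left of 0 (12 of 14), the 8 CCT entries all lie inside the band, and BAG1 is farthest right at 2.33.

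HSP70 proteins and their HSP110 relatives were mostly lower in SCI. Of the 14 genes 12 were lower, beside 56.3% of all entries, and 2 were higher. At least 2-fold, 4 were lower and 1 higher, beside 12.1% and 7.96% of all entries. Among the 4, HSPA1L fell short of 2-fold under centring (−0.92). Leaving out HSPA12A, HSPA12B and HSPA14 removes both higher genes, so that the remaining 11 are all lower by that choice. Their median log2 ratio was −0.89, and these 11 stayed lower under each of the 3 scalings tried. The summed level of the 14 genes was 800.1 FPKM in No-SCI and 523 FPKM in SCI.

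The stress-inducible cytosolic genes HSPA1A and HSPA1B are near-identical copies whose reads are hard to divide. HSPA1A was at 90.7 FPKM in No-SCI and 33.9 FPKM in SCI, a 2.68-fold lower value. HSPA1B was at 81.6 and 40.9 FPKM, just short of 2-fold (1.99). Their sum, which does not depend on how reads were divided between them, was 172 FPKM in No-SCI and 74.8 FPKM in SCI, a log2 ratio of −1.20. HSPA1L, the third gene of that cluster, mainly of the testis and overlapping HSPA1A, was at 3.78 and 1.84 FPKM.

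HSPA8, the constitutive cytosolic HSP70 that also strips clathrin from vesicles, differed less. It was the most abundant gene of the family in both groups, with 211 FPKM in No-SCI and 186 FPKM in SCI (log2 ratio −0.18). The ratio of HSPA8 to HSPA1A plus HSPA1B was accordingly 1.22 in No-SCI and 2.48 in SCI. RefSeq lists 33 pseudogenes of HSPA8, which can share reads with it. HSPA2, a further cytosolic HSP70, was at 96.1 and 51.7 FPKM, a log2 ratio of −0.89.

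Among the HSP70 proteins of organelles, HSPA9 (mortalin, of the mitochondrial matrix) was at 42.1 FPKM in No-SCI and 19.1 FPKM in SCI, a log2 ratio of −1.14. HSPA5 (BiP, of the endoplasmic reticulum) was at 73.4 and 46.2 FPKM, a log2 ratio of −0.67. HSPA13, of the microsomal fraction, was at 22.0 and 17.5 FPKM. All 3 were thus lower in SCI, with HSPA9 past 2-fold.

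The HSP110 genes act as nucleotide exchange factors of HSP70. HSPA4L was at 31.8 FPKM in No-SCI and 10.2 FPKM in SCI, 3.13-fold lower and the lowest ratio of the family. HSPH1 was at 86.0 and 52.7 FPKM (log2 ratio −0.71), and HSPA4 at 33.8 and 26.6 FPKM (−0.34). The lower value was therefore shared by all 3 exchange factors, in unequal size.

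HSPA12B, an endothelial relative of HSP70, went the other way, from 6.03 FPKM in No-SCI to 13.5 FPKM in SCI. Of 9 endothelial and mural markers 7 are listed, 4 higher and 3 lower, with a summed level of 43.9 FPKM in No-SCI and 47.2 FPKM in SCI, and PECAM1 and TEK have no entry in the table used. CDH5, the cadherin of endothelial junctions, was at 3.85 and 11.7 FPKM (log2 ratio 1.61) and was the only 1 of the 7 past 2-fold. CLDN5, the most abundant of the 7 in both groups, was among the 3 lower, at 16.2 and 13.7 FPKM (−0.24). RGS5 (−0.64) was lower as well. The 7 thus did not share 1 direction, and their median log2 ratio was 0.30, beside −0.12 for all entries. The part of these markers' cell types in the value of HSPA12B was not tested. HSPA12A was at 3.51 and 3.05 FPKM, and the ribosome-associated HSPA14 at 18.5 and 19.9 FPKM.

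**Figure D2:**
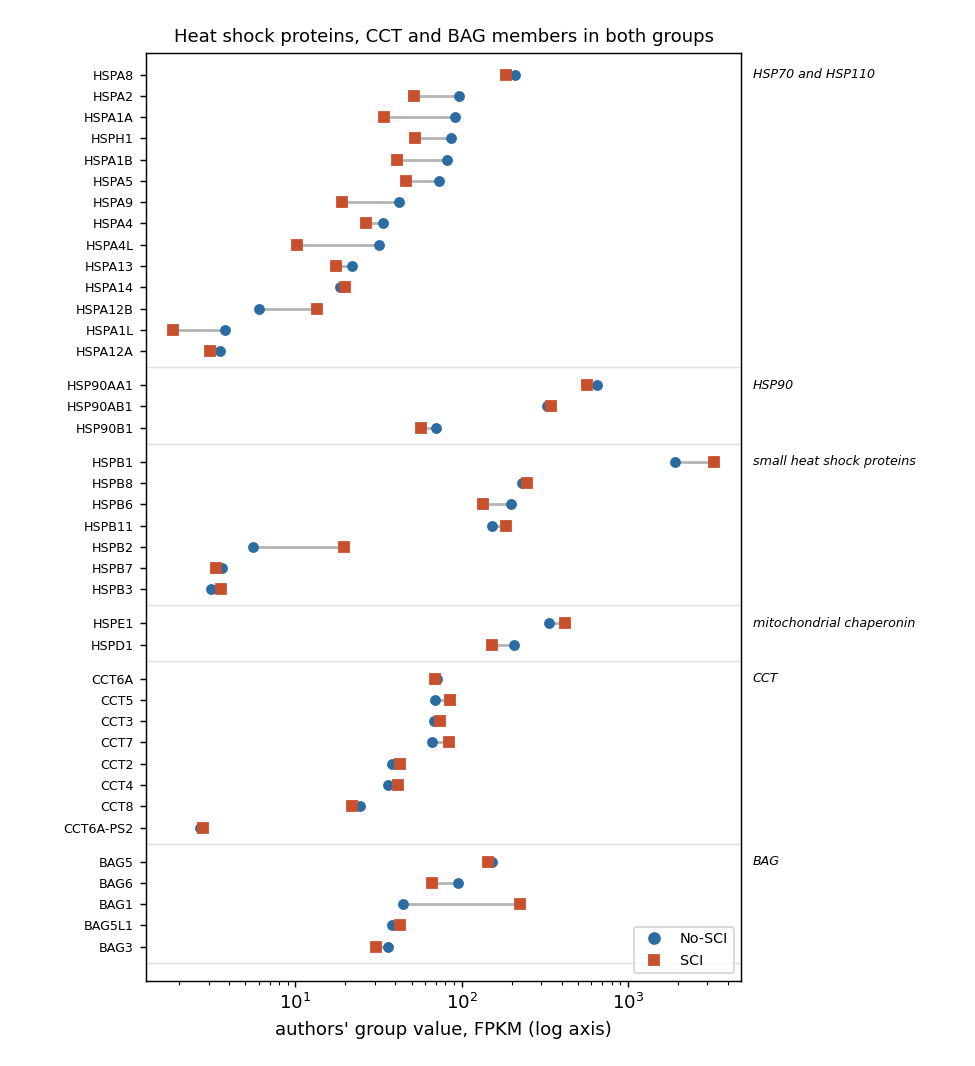
The authors' group value of each heat shock protein, CCT and BAG entry is shown in FPKM on a log axis, with No-SCI as blue circles, SCI as red squares and a grey line joining the 2 values of an entry. HSPB1 is the most abundant (1914 and 3305 FPKM), most HSP70 squares lie left of their circles, CCT symbols nearly coincide, and BAG1 has the longest line to the right (44.6 to 224 FPKM).

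HSP90 genes were abundant, and their log2 ratios lay between −0.31 and 0.09. HSP90AA1, the stress-inducible cytosolic form, was at 656 FPKM in No-SCI and 567 FPKM in SCI (log2 ratio −0.21). HSP90AB1, the constitutive cytosolic form, was at 326 and 347 FPKM (0.09). The ratio of the inducible to the constitutive form was 2.01 in No-SCI and 1.63 in SCI, so the inducible form was the larger in both groups. HSP90B1 (GRP94, of the endoplasmic reticulum) was at 70.5 and 57.0 FPKM (−0.31). RefSeq lists 23 pseudogenes for HSP90AB1 and 16 for HSP90AA1.

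The small heat shock proteins made up a larger part of the summed chaperone level in SCI, and HSPB1 carried that difference. Their sum was 2506 FPKM in No-SCI and 3900 FPKM in SCI, 28.7% and 41.9% of the sum over all 80 members. HSPB1 (HSP27), which holds unfolding proteins and binds actin filaments, was at 1914 FPKM in No-SCI and 3305 FPKM in SCI, a log2 ratio of 0.79. It ranked 76 among all entries in No-SCI and 34 in SCI, and alone gave 21.9% and 35.5% of the summed member level. HSPB1 was 2.92 times as abundant as HSP90AA1 in No-SCI and 5.83 times in SCI.

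HSPB2, a small heat shock protein of muscle, had the largest ratio of its family at 1.83. It was at 5.54 FPKM in No-SCI and 19.7 FPKM in SCI. HSPB2 lies next to CRYAB, the gene of alpha B crystallin, and the annotated genes overlap in GRCr8. CRYAB, which falls outside the rule by its symbol but is a small heat shock protein, was at 3394 FPKM in No-SCI and 7532 FPKM in SCI (log2 ratio 1.15).

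The other muscle-type members differed among themselves. HSPB6 (HSP20), found in smooth and striated muscle, was at 198 FPKM in No-SCI and 134 FPKM in SCI (log2 ratio −0.56). HSPB3 was at 3.10 and 3.55 FPKM and HSPB7 at 3.59 and 3.34 FPKM, and the sign of HSPB7 (−0.10) turned under centring (0.01). Beside them, 11 of 12 skeletal muscle markers are listed and all 11 were lower, with a summed level of 448 FPKM in No-SCI and 55.9 FPKM in SCI. Of the 7 smooth muscle markers, all listed, 4 were lower and 3 higher, with sums of 468 and 575 FPKM. The part of muscle RNA in these values was not tested. HSPB8, which works with BAG3 to route damaged proteins to autophagy, was at 230 and 248 FPKM (0.11), and HSPB11 at 153 and 186 FPKM (0.28).

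The mitochondrial chaperonin genes went in opposite directions. HSPD1 (HSP60), which forms the ring, was at 205 FPKM in No-SCI and 153 FPKM in SCI (log2 ratio −0.42). HSPE1 (HSP10), its lid, was at 338 and 419 FPKM (0.31). The ratio of lid to ring was 1.64 in No-SCI and 2.73 in SCI. The genes start on either side of the shared stretch of promoter described above. RefSeq lists 20 pseudogenes of HSPD1.

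Of the 41 J domain genes 22 were lower and 19 higher, with a median log2 ratio of −0.05, but their 3 classes and their sites of action differed. DNAJA proteins are general partners of HSP70. DNAJA1, of the cytosol, was at 156 and 150 FPKM and DNAJA3, of mitochondria, at 52.2 and 50.3 FPKM, both with a log2 ratio of −0.05 that turned positive under centring (0.06 for each). DNAJA4, of the cytosol, was at 23.0 FPKM in No-SCI and 49.6 FPKM in SCI, 2.15-fold higher.

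DNAJB genes had a median log2 ratio of −0.47, with 7 of 11 lower beside 56.3% of all entries. DNAJB2 (HSJ1), a neuron-enriched partner of HSP70 that binds ubiquitin chains, was the most abundant J domain gene in No-SCI at 709 FPKM, and was at 348 FPKM in SCI (−1.03). DNAJB6, which keeps polyglutamine proteins from aggregating, was at 297 and 190 FPKM (−0.65). DNAJB1, the classical HSP40 induced with HSPA1A, was at 103 and 74.2 FPKM (−0.47). DNAJB13, of the axoneme of cilia and flagella, was at 4.75 and 2.11 FPKM (−1.17). The part of the DNAJB class in the summed member level was 15.5% in No-SCI and 8.94% in SCI.

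Neuronal markers were mostly lower beside these values. Of 11 neuron markers 9 are listed, 7 lower and 2 higher, with summed levels of 1880 FPKM in No-SCI and 1732 FPKM in SCI. GAP43, the most abundant of them, was at 1275 and 1406 FPKM, and THY1 at 297 and 136 FPKM, while SNAP25 and NEFM have no entry in the table used. Their part in the lower values of neuron-enriched chaperones was not tested.

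The 4 members on a list of vesicle and clathrin traffic were all lower in SCI, beside 56.3% of all entries, with a median log2 ratio of −0.88. DNAJC6 (auxilin), which recruits HSPA8 to coated vesicles in neurons, was at 11.99 FPKM in No-SCI and 3.79 FPKM in SCI (−1.66). DNAJC13, an endosomal J protein that directs clathrin dynamics, was at 6.35 and 2.95 FPKM (−1.11). DNAJC5 (cysteine string protein), of synaptic vesicles, was at 142 and 90.2 FPKM (−0.65). HSPA8, given above, had a log2 ratio of −0.18, near the median of all entries (−0.12). GAK, the broadly expressed auxilin that does not match the rule, was at 42.5 and 21.2 FPKM (−1.001).

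Other J domain genes of the DNAJC class included the largest lower value of all members. DNAJC27, a Rab-like GTPase with a J domain, was at 64.7 FPKM in No-SCI and 19.0 FPKM in SCI, 3.41-fold lower. DNAJC14, a membrane protein of the endoplasmic reticulum, was at 195 and 82.3 FPKM (−1.25), and DNAJC18 at 13.7 and 6.65 FPKM (−1.04). DNAJC25 was at 3.23 and 7.52 FPKM, a log2 ratio of 1.22 at a low level. DNAJC8, a spliceosomal protein and the most abundant J domain gene in SCI, was at 346 and 370 FPKM (0.09). Of the 26 DNAJC genes 13 were lower and 13 higher. The 16 J domain genes not named here ran from −0.71 to 0.80 in log2 ratio, 10 higher and 6 lower.

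**Figure D3:**
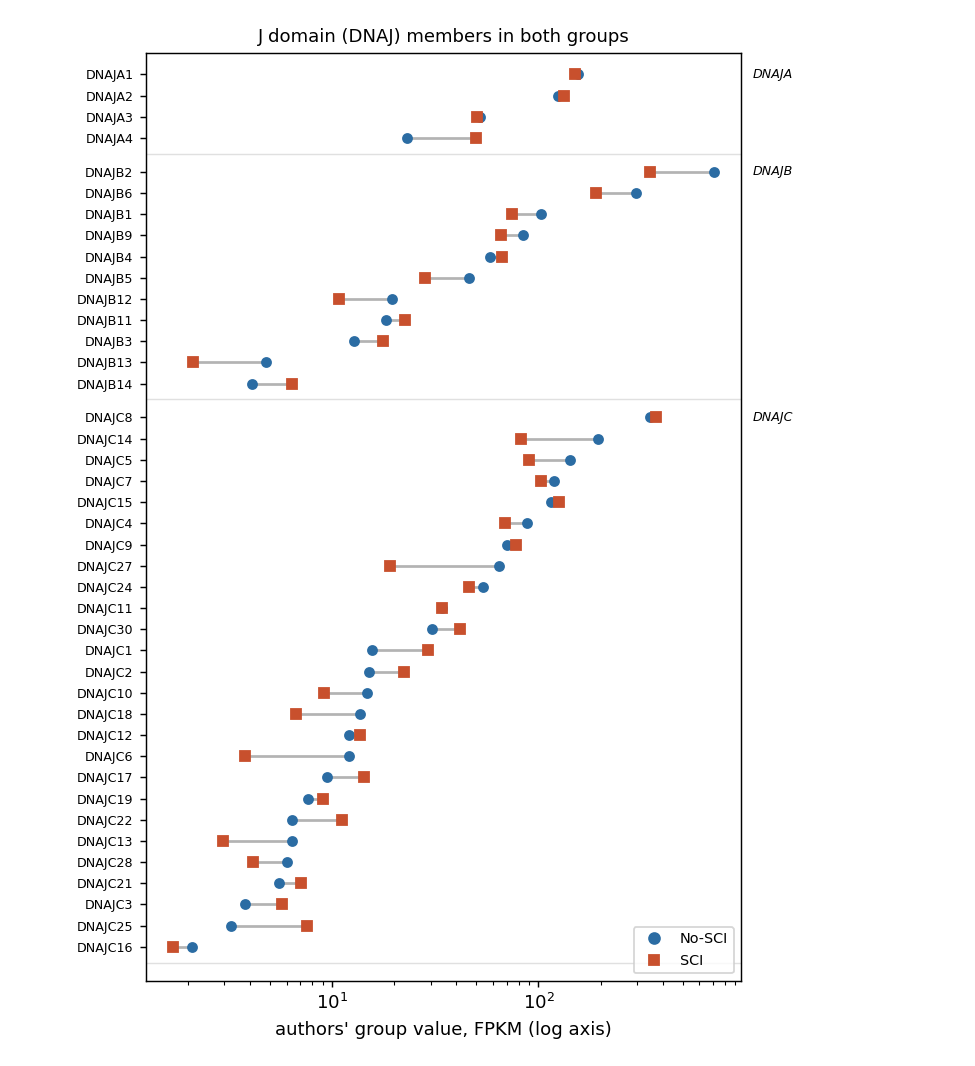
The authors' group value of the 41 J domain entries is shown in FPKM on a log axis by class, with No-SCI as blue circles, SCI as red squares and a grey line joining the 2 values of an entry. DNAJB2 moves from 709 to 348 FPKM, DNAJC27 and DNAJC6 have the longest lines to the left, and DNAJA4 and DNAJC25 the longest to the right.

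By compartment, the 10 members on the list of the endoplasmic reticulum, which does not hold DNAJC14, were split, with 6 lower, a median log2 ratio of −0.32 and none at least 2-fold either way. DNAJB9, a J protein of the lumen induced by unfolded proteins, was at 84.1 and 66.1 FPKM (−0.35), and DNAJC10, a J protein that reduces disulfides, at 14.7 and 9.12 FPKM (−0.69). DNAJB12 and DNAJB14, both of the membrane, differed, with 19.6 and 10.8 FPKM (−0.86) for the first and 4.10 and 6.38 FPKM (0.64) for the second. DNAJC1, also of the membrane, was at 15.5 and 29.1 FPKM (0.91), the highest ratio of this group, and passed 2-fold under centring. The BiP partners DNAJB11 and DNAJC3 had log2 ratios of 0.30 and 0.59.

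Members of mitochondria did not share a direction. Of 7 genes 4 were lower and 3 higher as deposited, with a median log2 ratio of −0.00 that became 0.11 under centring, where 2 were lower. The J proteins of the import motor, DNAJC15 and DNAJC19, were at 115 and 126 FPKM (0.14) and at 7.65 and 9.004 FPKM (0.24). DNAJC11, of the inner membrane organizing complex, was at 34.1 and 34.0 FPKM. HSPA9 was the exception past 2-fold.

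The subunits of the CCT chaperonin, which folds actin and tubulin, had log2 ratios on both sides of 0 and within a narrow range. CCT7 had the highest log2 ratio at 0.34 (66.0 FPKM in No-SCI, 83.7 FPKM in SCI) and CCT8 the lowest at −0.16 (24.4 and 22.0 FPKM). CCT2, CCT3, CCT4 and CCT5 had log2 ratios of 0.17, 0.14, 0.20 and 0.30, and CCT6A had −0.04, which turned positive under each of the 3 scalings (0.08 under centring). TCP1, the remaining subunit of the ring by function, falls outside the rule and was at 67.1 and 77.7 FPKM (0.21). All 8 CCT entries thus lay between the quartiles of all entries, −0.61 and 0.37. The most abundant subunit was 2.91 times the least abundant in No-SCI and 3.89 times in SCI, without the pseudogene CCT6A-PS2, which was at 2.68 and 2.79 FPKM. RefSeq lists 14 pseudogenes of CCT6A.

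BAG proteins release clients from HSP70, and BAG1 had the largest ratio of all 80 members. BAG1, which links HSP70 to the proteasome, was at 44.6 FPKM in No-SCI and 224 FPKM in SCI, 5.04-fold higher, and ranked 3659 among all entries in No-SCI and 937 in SCI. Its neighbour in the genome, CHMP5, was at 125 and 95.2 FPKM (−0.39) and did not share the direction. The other BAG genes were nearer to 0. BAG3, of chaperone-assisted autophagy, was at 36.1 and 30.6 FPKM (−0.24), and BAG6, which sorts membrane proteins, at 95.3 and 66.4 FPKM (−0.52). BAG5 was at 153 and 144 FPKM (−0.08, and 0.03 under centring), and BAG5L1, in RefSeq a synonym of BAG5, at 38.2 and 42.5 FPKM (0.15).

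The 14 members listed as targets of heat shock factors did not move as 1 group. Of these genes 10 were lower (71.4%, beside 56.3% of all entries) and 4 higher (HSPB1, HSPE1, HSPB8 and HSP90AB1), and the median log2 ratio was −0.22. At least 2-fold lower were 2 of the 14 (HSPA1A and HSPA1L), beside 12.1% of all entries. HSPA1L, mainly of the testis, at a low level and overlapping HSPA1A, fell short of 2-fold under centring (−0.92). The promoter windows of HSPA1A and HSPA1L held no match. Under centring 9 were lower, since DNAJA1 turned. Among the heat shock factor genes themselves, HSF1 was at 9.17 and 10.9 FPKM (0.25), HSF2 at 28.0 and 19.1 FPKM (−0.55) and HSF4 at 1.92 and 2.49 FPKM (0.37). HSBP1, which binds HSF1, was at 790 and 677 FPKM (−0.22).

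Set beside the promoter letters, 14 of the 19 members with the pair were lower, with a median log2 ratio of −0.42. Of the 45 members without it 25 were lower, with a median of −0.10. Of all entries 56.3% were lower, with a median of −0.12. Whether the letters bear on the ratio was not tested. The 6 with the run of 3 units had a median of −0.12, 4 of them lower and none past 2-fold. The ratios of members with the pair spanned −1.77 to 0.79, from DNAJC27 to HSPB1.

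**Figure D4:**
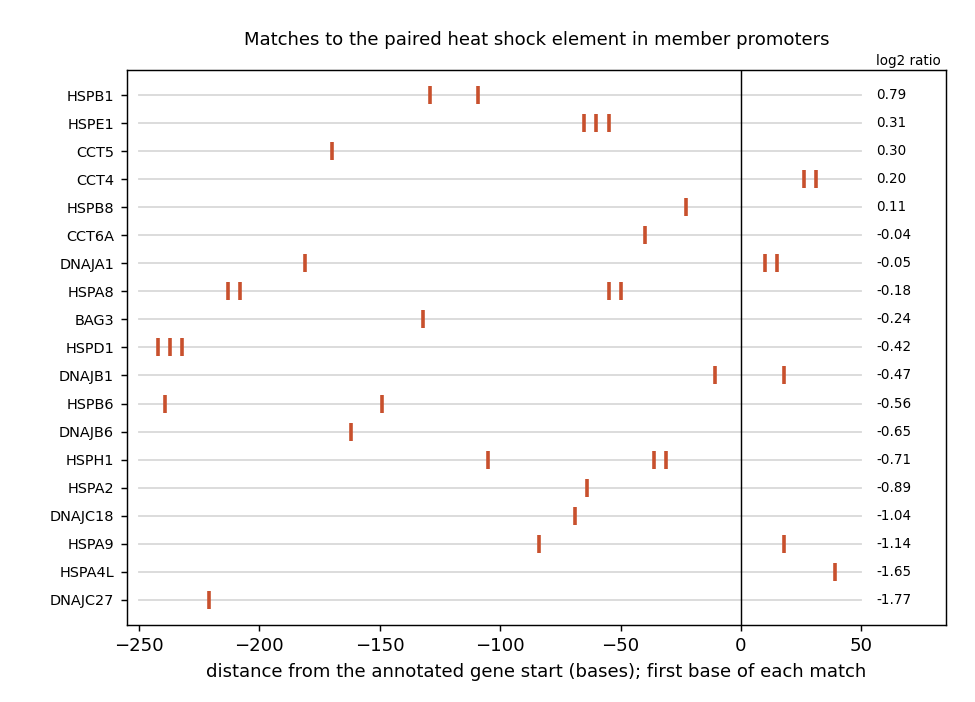
Each red mark is the first base of a match to the paired heat shock element in a member's promoter, at its distance in bases from the annotated gene start (horizontal axis, start at 0), for the 19 members with a match, ordered by log2 ratio of SCI over No-SCI (printed at right). Matches occur from the top of the order (HSPB1, 0.79) to the bottom (DNAJC27, −1.77), and marks a few bases apart in HSPE1, HSPD1, HSPA8 and HSPH1 are overlapping matches within a run.

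Other folding genes, taken from lists and not from the symbol rule, were more often higher than lower. Of 63 such genes 62 are listed, 39 higher and 23 lower (37.1%), beside 56.3% of all entries lower. Their median log2 ratio was 0.21. At least 2-fold, 8 were higher and 1 lower, beside 7.96% and 12.1% of all entries. The HSP90 co-chaperones were split, with 8 of 16 higher as deposited and 12 under centring. Among them FKBP5, a co-chaperone of the glucocorticoid receptor complex, was at 7.42 FPKM in No-SCI and 37.0 FPKM in SCI, a log2 ratio of 2.32. FKBP4, its counterpart in the same complex, was at 13.1 and 29.1 FPKM (1.15). CDC37 and CDC37L1, the most abundant of the list by the mean of both groups, were at 246 and 296 FPKM and at 196 and 162 FPKM.

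Of 6 listed HSP70 co-chaperones and exchange factors outside the rule 4 were higher, with HSPBP1 at 338 and 458 FPKM (0.44) and the mitochondrial GRPEL1 at 174 and 220 FPKM (0.34). Of 13 genes on a list of TCP1, prefoldin subunits and tubulin folding cofactors, 9 were higher. TBCA, which holds beta tubulin, was at 909 and 1821 FPKM (1.002), TBCC, of the last step of tubulin folding, at 28.8 and 88.8 FPKM (1.62), and the prefoldin subunit PFDN5 at 478 and 604 FPKM (0.34). The lens crystallin CRYAA was at 1.72 and 5.64 FPKM.

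In the endoplasmic reticulum 11 of 14 other folding genes were higher. TXNDC5, a disulfide isomerase, was at 8.75 and 22.5 FPKM (1.36), and FKBP10, a collagen chaperone, at 9.53 and 20.7 FPKM (1.12). CANX (calnexin), the most abundant of this list in No-SCI, was at 126 and 52.9 FPKM (−1.26), the only 1 at least 2-fold lower. CALR (−0.19) and SERPINH1 (−0.15) were lower by less, and P4HB was at 90.6 and 104 FPKM (0.20). Of 7 other mitochondrial folding and protease genes 3 were higher, with CLPB at 85.7 and 58.1 FPKM and HSCB at 73.3 and 100.1 FPKM. Beside FKBP10 stands the list of meningeal fibroblast markers, all 11 of them listed and higher. Their summed level was 76.1 FPKM in No-SCI and 934 FPKM in SCI, and their part in these values was not tested.

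The oligodendrocyte and astrocyte lists were mostly lower beside the HSP70 and DNAJB values. Of 12 oligodendrocyte markers 11 are listed, 10 of them lower, with a summed level of 88661 FPKM in No-SCI and 48607 FPKM in SCI, and MBP has no entry in the table used. Of 10 astrocyte markers 5 are listed, 4 of them lower, with sums of 8177 and 3332 FPKM. NDRG2 alone was at 8001 and 3228 FPKM, so these sums rest on that gene. The 10 microglia and macrophage markers were split, with 6 lower as deposited and 5 under centring, and with sums of 929 and 971 FPKM. Of 10 blood markers 7 are listed, 4 lower as deposited and 3 under centring, and HBA1, ALAS2 and CAMP have no entry in the table used. The part of any of these cell types in the values of the chaperones was not tested.

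**Figure D5:**
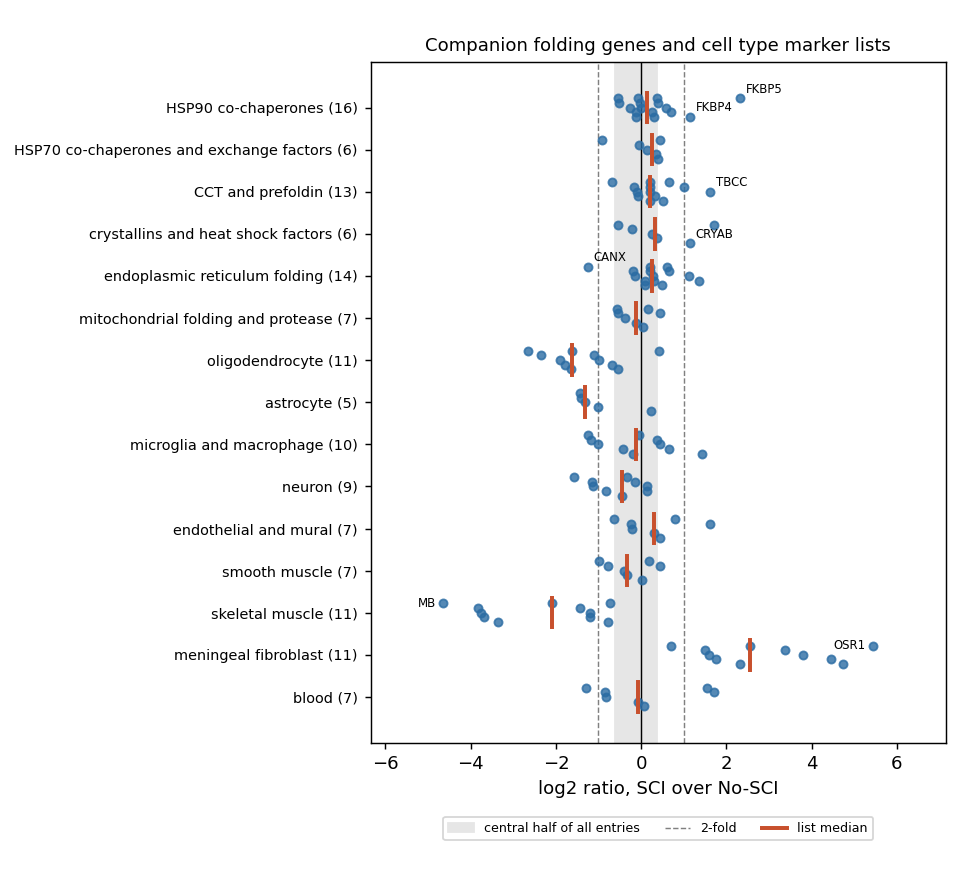
The log2 ratio of SCI over No-SCI (horizontal axis) is shown for folding genes outside the symbol rule and for cell type markers, 1 point per listed gene, with the number listed in brackets; red bars are list medians, dashed lines mark 2-fold and the grey band spans the quartiles of all entries. The medians of the folding lists lie between −0.13 and 0.31, while those of the oligodendrocyte (−1.62), astrocyte (−1.31), skeletal muscle (−2.09) and meningeal fibroblast (2.56) lists lie outside 2-fold.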

How the data were processed

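RNA of spinal cord supernatant was sequenced by the authors after removal of ribosomal RNA, in stranded libraries. Per the study's methods and the submitters' processing notes, reads were downsampled to the smallest library and aligned to rn6 (Ensembl annotation) by STAR 2.5.4b, and Cuffdiff (cufflinks 1.3.0, upper quartile normalization) gave the deposited FPKM values, 1 per group. Whether counting used strand is not given in the sources used here. The deposited table also holds the authors' fold change, log2 fold change, p-values, q-values and significance calls, of which none were used. All measurement columns had a group (0 without one).

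The 80 members were found by symbol, and log2 ratios of SCI to No-SCI, folds, ranks, medians and sums were computed without a pseudocount or filter (Python 3.11.15, numpy 2.4.6, pandas 2.3.3, matplotlib 3.10.9). With 1 pooled value per group no spread or replicate test could be computed, and the table holds no counts, so the depth behind single values was not computed. The steps were tested on simulated data with 200 genes shifted. A fixed fold of 2 took the place of a test. Members and lists were chosen with earlier results of these data known. All HSPA, HSPH, HSP90, HSPB, HSPD, HSPE, CCT and BAG entries could be named. Of the DNAJ entries, those past 2-fold, the 5 of highest mean and those in the compartment lists could be named. Of other folding genes and markers, the 2 most abundant per list and those past 2-fold could be named, with CRYAB, TCP1 and the heat shock factors; GAK stands in the vesicle list. CHMP5, CALR, SERPINH1 and the markers without an entry were chosen after the values were seen. Names, pseudogenes and promoters are from RefSeq GRCr8. Protein motifs were planned but protein sequences were not analysed here. Alternatives were pseudocounts of 1 and 0.1, 1 subtracted, 3 scalings, a mean of at least 5 FPKM, folds of 1.5 and 1.3, members with other roles left out, and means.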

Additional observations from a re-analysis of the deposited data

How the results depend on the processing

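No paired analysis was possible because the deposited values are pooled by group, and for the same reason no replicate could be left out. The 11 members at least 2-fold lower became 7 with a pseudocount of 1 and 7 with the median centred, beside 9.53% and 9.59% of all entries. They became 20 and 25 at folds of 1.5 and 1.3, where the 5 higher became 11 and 14. The shares of all entries at these 2 folds are not given here. Those lost under centring were DNAJC13, DNAJC18, HSPA1L and DNAJB2. The lower part of the calls at 2-fold was 68.8% as deposited and 53.8% under centring. Among all entries 1539 were at least 2-fold lower and 1016 higher as deposited, and 1225 and 1219 under centring. The median of the members (−0.07) changed sign under centring (0.047) and the same upper quartile (0.033), and was −0.025 at the same total, −0.054 at a mean of at least 5 FPKM, −0.094 without members of other roles and −0.12 as a mean. The medians of the mitochondrial chaperonin (0.060 and 0.046) and BAG (0.032 and 0.018) changed sign under centring and the same upper quartile. The number lower went from 2 to 1 for small heat shock proteins (centring, or a mean of at least 5 FPKM), from 2 to 1 for CCT (all 3 scalings), and from 2 to 0 for DNAJA (centring and upper quartile). Each scaling moves every ratio by 1 constant, and the sign of 6 members near 0 turned (BAG5, CCT6A, DNAJA1, DNAJA3, DNAJC11 and HSPB7). The median of HSP70 and HSP110 stayed between −0.89 and −0.57, of HSP90 between −0.21 and −0.09, of small heat shock proteins between 0.15 and 0.31, of DNAJA between 0.02 and 0.13, of DNAJB between −0.48 and −0.36, of DNAJC between 0.05 and 0.16 and of CCT between 0.15 and 0.27. The table holds no counts, so ratios of the 10 members below 5 FPKM in No-SCI are given without a counting error. With 1 subtracted, 12 members were at least 2-fold lower, beside 16.2% of the entries above 1 in both groups, and HSPA1L (−1.73) and DNAJB13 (−1.76) moved by over 1.5 times.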
